A study of Rattus norvegicus with 10 samples.

Results

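Cyclic hyperoxia was compared with room air in the retina of SD (Sprague Dawley) rats at postnatal day 3, across all genes of the array. The comparison used 5 of the series' 10 arrays, 2 of cyclic hyperoxia and 3 of room air, chosen by strain. Genes were those read by the 15097 of 27342 probe sets with a single gene symbol, 14325 genes in all. In the hyperoxia group, whole litters with their mothers were moved to a chamber no later than 12 hours after birth, where oxygen alternated every 24 hours between 80% and 21% until postnatal day 3. The room-air group was of the same strain and age and stayed in ordinary air. The other 5 arrays held the same exposures in F344 (Fischer 344) rats, 3 pools in hyperoxia and 2 in room air, which the study's design text names beside SD as strains that differ in susceptibility to oxygen-induced retinopathy. Every array held 1 pool of whole-retina RNA from 3 rats of 2 litters, so variation between single rats was averaged within a pool and cell types were not separated. A p-value below sets a difference against the spread between such pools, which was estimated over all 10 arrays, F344 included, unless another fit is named.

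Cells sense oxygen through prolyl hydroxylases, which mark the alpha subunits of hypoxia-inducible factor (HIF) for destruction when oxygen is plentiful. When oxygen is scarce the factor persists, binds short DNA elements and raises genes for glucose uptake, glycolysis, lactate export, mitochondrial remodelling and vessel growth. The newborn rat retina is still without most of its vessels, and vascular endothelial growth factor made in its poorly oxygenated parts guides their spread. Added oxygen is known to stop that growth, which is why cyclic hyperoxia serves as a model of retinopathy of prematurity.

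Expression was given as log2 values to 1 decimal, so a difference of 1 is a factor of 2, and each gene was counted by its brightest probe set. The labelled tissue was checked on 9 measured retina markers. Neurod1, a transcription factor of photoreceptor and amacrine precursors, stood at 12.0 and 12.1 in hyperoxia pools, against 12.0, 11.9 and 12.0 in room-air pools. The eye-field factor Pax6 stood at 11.6 and 11.7, against 11.6, 11.7 and 11.5. The photoreceptor factor Crx stood at 10.9 and 11.0, against 10.7, 11.0 and 11.2. The groups overlapped for all 3 of these genes. Over the 9 markers, 1 did not overlap on the low side and 1 on the high side (7.34% and 6.67% of all genes). Without room-air pool 3 these were 2 and 1 (11.5% and 11.2% of all genes). Values of the 9 ran from 7.1 to 12.1.

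Room-air pool 3 stood apart from the other SD pools. The design text says that 1 array of this group was added after the first 8 had been examined, and pool 3 was taken to be that array from its number alone. Over all genes, the standard deviation of the difference was 0.159 between the hyperoxia pools, against 0.203 between room-air pools 1 and 2, 0.286 between room-air pools 1 and 3 and 0.30 between room-air pools 2 and 3. Pool 3 lay at least 0.5 above both other room-air pools for 448 genes and at least 0.5 below both for 458. The main results are therefore given with and without it. Where no second value is given, all 3 room-air pools were used, and the value without pool 3 can differ.

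In limma's test over all 10 arrays, with p-values adjusted by Benjamini-Hochberg across every probe set, 7 genes fell in hyperoxia (0.0489% of those tested) and 0 rose (0.0%). The 7 were Igfbp2, Slc16a3, Pdk1, Cox4i2, Bnip3, Fam162a and Mif, genes of growth factor binding, lactate export, pyruvate use, mitochondria and cytokine signalling. At an unadjusted p under 0.05 there were 422 lower (2.95%) and 249 higher genes (1.74%). This balance depended on scaling, since centring each array on its median gave 244 lower and 303 higher. Without room-air pool 3, 6 of the same 7 genes fell (0.0419%) and again 0 rose, with 336 lower (2.35%) and 233 higher (1.63%) at an unadjusted p under 0.05. With 1 model term shared by the arrays numbered 3, 17 genes fell (0.119%), all 7 among them, and 0 rose, with 470 lower (3.28%) and 325 higher (2.27%) before adjustment.

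Igfbp2, which encodes a secreted protein that binds insulin-like growth factors, had the smallest p. It stood at 6.6 and 6.7 in hyperoxia pools, against 8.4, 8.5 and 8.6 in room-air pools. The groups were 1.7 apart at their nearest, and neither group spread by more than 0.2. The gene fell by 1.85 on the log2 scale (SE 0.127, adjusted p = 1.23e-04 by limma), and by 1.80 without room-air pool 3 (adjusted p = 8.99e-04).

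Slc16a3, which encodes the lactate exporter of glycolytic cells, showed the largest fall among the 7. It stood at 6.8 and 7.3 in hyperoxia pools, against 9.0, 9.2 and 8.9 in room-air pools. It fell by 1.98 (SE 0.243, limma adjusted p = 0.0149). Without pool 3 it fell by 2.05 (adjusted p = 0.0432). Pdk1 encodes a kinase that marks and inhibits pyruvate dehydrogenase. It stood at 8.2 and 8.3, against 9.6, 9.5 and 9.4 in room air, and fell by 1.25 (SE 0.137, limma adjusted p = 0.00798, and 0.0306 without pool 3). In both genes every hyperoxia pool lay more than a full log2 unit below every room-air pool.

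Another 3 of the genes that fell encode mitochondrial proteins. Cox4i2, the isoform of cytochrome c oxidase subunit 4 that low oxygen induces, stood at 7.7 and 7.9 in hyperoxia pools, against 9.0, 9.3 and 9.4 in room-air pools. It fell by 1.43 (SE 0.153, limma adjusted p = 0.00798, and 0.0306 without pool 3). Bnip3, which marks mitochondria for removal by autophagy, stood at 9.1 and 9.5, against 10.8, 10.7 and 11.2. It fell by 1.60 (SE 0.214, limma adjusted p = 0.0266), and without pool 3, its highest pool, the difference was -1.45 and no longer passed (adjusted p = 0.0678). The other Bnip3 probe set passed as well, at -1.38 (adjusted p = 0.0254). Fam162a, a mitochondrial protein linked to cell death in low oxygen, stood at 9.5 and 9.4, against 10.5, 10.4 and 10.5, and fell by 1.02 (SE 0.122, limma adjusted p = 0.0146, and 0.0432 without pool 3). For all 3 the groups were separated by at least 0.9.

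Mif, the cytokine macrophage migration inhibitory factor, was the weakest of the 7. It stood at 9.5 and 9.4 in hyperoxia pools, against 10.3, 10.7 and 10.2 in room-air pools. It fell by 0.95 (SE 0.141, limma adjusted p = 0.0495, and 0.0432 without pool 3). Rodent genomes hold processed copies of Mif, as they do of Gapdh, Hmgb1 and many ribosomal protein genes, and how the probes treat near-identical copies is not given in the sources used here. A paper on these rats is known to report Hk2, Egln3, Slc16a3 and Bnip3, and their direction here is no independent evidence.

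The count rested on few arrays. With only the 5 SD arrays in the fit 0 genes passed by limma (440 lower and 306 higher at an unadjusted p under 0.05), and Igfbp2 was at -1.85 with an adjusted p of 0.117. Of the SD arrays, 1 gene passed without hyperoxia pool 1, 1 without hyperoxia pool 2, 1 without room-air pool 2 and 2 without room-air pool 1. Either F344 room-air pool, which serves only the estimate of spread, left 4 genes when dropped.

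**Figure D1:**
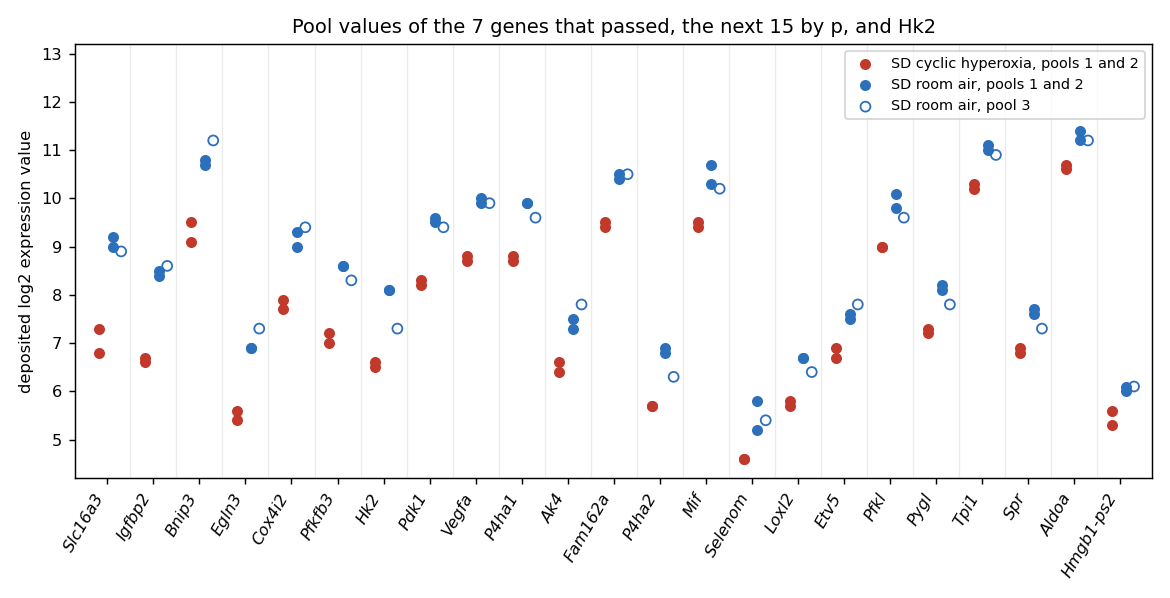
Deposited log2 values (vertical axis) of the 7 genes that passed, the 15 next by p and Hk2, with 1 dot per pool: red for the 2 SD cyclic hyperoxia pools, blue for SD room-air pools 1 and 2, and an open blue ring for room-air pool 3. In every gene shown both hyperoxia pools lie below all room-air pools. Room-air pool 3 is the highest pool for Bnip3 at 11.2 and the lowest room-air pool for Hk2 at 7.3.

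The promoter windows of 4 of the 7 genes are shown, because HIF binds the core ACGTG or GCGTG and the genes moved together. Each window runs from 250 bases before the annotated start to 50 bases after it, from RefSeq on the build GRCr8, written 5′ to 3′ on the gene's strand, with every ACGTG or GCGTG on either strand in capitals. Read on the opposite strand these cores appear as CACGT and CACGC, and CACGTG holds ACGTG on both strands, overlapping. Igfbp2 is at chr9:81864561-81864860 (plus strand), Pdk1 at chr3:77113264-77113563 (plus strand), Bnip3 at chr1:203154913-203155212 (minus strand) and Slc16a3 at chr10:106712078-106712377 (plus strand).
Igfbp2: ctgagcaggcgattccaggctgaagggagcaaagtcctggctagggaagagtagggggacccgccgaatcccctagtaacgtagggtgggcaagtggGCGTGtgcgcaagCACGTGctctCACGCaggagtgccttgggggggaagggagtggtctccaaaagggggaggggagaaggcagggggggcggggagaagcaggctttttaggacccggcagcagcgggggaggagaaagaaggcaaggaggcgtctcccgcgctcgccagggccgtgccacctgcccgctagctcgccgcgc
Pdk1: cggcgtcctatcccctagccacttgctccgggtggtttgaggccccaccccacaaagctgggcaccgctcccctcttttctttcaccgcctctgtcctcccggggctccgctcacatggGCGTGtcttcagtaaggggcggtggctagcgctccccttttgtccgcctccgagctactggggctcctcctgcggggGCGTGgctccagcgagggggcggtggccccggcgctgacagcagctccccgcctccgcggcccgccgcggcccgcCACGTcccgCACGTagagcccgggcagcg
Bnip3: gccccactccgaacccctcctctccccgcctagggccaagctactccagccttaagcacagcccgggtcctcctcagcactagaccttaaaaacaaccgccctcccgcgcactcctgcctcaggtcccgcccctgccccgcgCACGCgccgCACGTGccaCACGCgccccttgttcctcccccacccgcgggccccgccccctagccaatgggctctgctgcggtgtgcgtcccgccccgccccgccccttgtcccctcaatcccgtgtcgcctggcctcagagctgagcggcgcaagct
Slc16a3: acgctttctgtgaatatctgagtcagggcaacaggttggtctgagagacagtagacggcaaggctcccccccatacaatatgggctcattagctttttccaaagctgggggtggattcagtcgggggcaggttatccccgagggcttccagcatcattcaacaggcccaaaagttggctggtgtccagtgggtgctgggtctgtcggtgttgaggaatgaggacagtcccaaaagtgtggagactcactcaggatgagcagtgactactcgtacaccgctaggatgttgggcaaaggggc
The window of Igfbp2 held 2 matches of ACGTG and 2 of GCGTG, and so did those of Pdk1 and Bnip3. The window of Slc16a3 held 0 matches, which says only that these letters are not in this stretch. Fam162a had 1 ACGTG and 4 GCGTG, Mif had 2 ACGTG, and Cox4i2 had no entry. In all, 5 of the 6 genes with an entry held a match, and of the next 15 genes by p, described further on, 10 of the 13 with an entry did, Vegfa, Egln3 and Tpi1 being those without. Of all 33469 windows 41.6% held one, and of the 11806 counted genes with an entry 52.9% did in at least 1 window. A match is a description of the sequence, not evidence of binding.

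None of the next 15 genes by p passed, and in all of them both hyperoxia pools lay below every room-air pool, as was true of 1052 genes (7.34%) with 3 room-air pools and 1645 (11.5%) with 2. The opposite order, both hyperoxia pools above, held for 956 (6.67%) and 1610 genes (11.2%).

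Vegfa, the growth factor that draws vessels across the retina, came first. It stood at 8.7 and 8.8 in hyperoxia pools, against 10, 9.9 and 9.9 in room-air pools. The difference was -1.18 (SE 0.18, limma adjusted p = 0.0526), and -1.20 without pool 3 (adjusted p = 0.131). The pools within each SD group agreed to 0.1, and the gene stood just outside the threshold. The spread in the fit also came from the F344 pools. There Vegfa stood at 9.2, 9.9 and 9.4 in hyperoxia, against 9.5 and 9.9 in room air. Without F344 hyperoxia pool 2 its limma adjusted p was 0.0112. With the term for the arrays numbered 3 Vegfa fell by 1.22 (adjusted p = 0.0204).

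Egln3 encodes the HIF prolyl hydroxylase that HIF itself induces. It stood at 5.4 and 5.6 in hyperoxia pools, against 6.9, 6.9 and 7.3 in room-air pools (difference -1.53, SE 0.259, limma adjusted p = 0.114). Pfkfb3 makes the sugar phosphate that drives phosphofructokinase. It stood at 7.0 and 7.2, against 8.6, 8.6 and 8.3 (difference -1.40, adjusted p = 0.12). Ak4, an adenylate kinase of the mitochondrial matrix, stood at 6.4 and 6.6, against 7.5, 7.3 and 7.8 (difference -1.03, adjusted p = 0.12). P4ha1 and P4ha2 encode catalytic subunits of collagen prolyl hydroxylase and stood at -1.05 and -0.97 (adjusted p = 0.22 and 0.287). Loxl2, which cross-links collagen, stood at 5.7 and 5.8, against 6.7, 6.7 and 6.4 (difference -0.85, adjusted p = 0.22).

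The glycogen phosphorylase gene Pygl stood at 7.2 and 7.3 in hyperoxia pools, against 8.1, 8.2 and 7.8 in room-air pools (difference -0.78). The phosphofructokinase gene Pfkl stood at 9.0 and 9.0, against 9.8, 10.1 and 9.6 (difference -0.83). The glycolytic enzymes Aldoa and Tpi1 stood at -0.62 and -0.75. Outside sugar metabolism were Etv5, a transcription factor that fibroblast growth factor signals induce (6.7 and 6.9, against 7.5, 7.6 and 7.8), and Selenom, a selenoprotein of the endoplasmic reticulum (4.6 and 4.6, against 5.2, 5.8 and 5.4). Spr, the last enzyme of tetrahydrobiopterin synthesis, stood at 6.8 and 6.9, against 7.6, 7.7 and 7.3. The pseudogene Hmgb1-ps2 completed the 15 at -0.62. With the term for the arrays numbered 3, a further 6 of the 15 besides Vegfa and Etv5 passed as lower by limma. Loxl2 was at -0.97 (adjusted p = 0.0127), P4ha2 at -1.11 (adjusted p = 0.0146) and Pfkl at -0.93 (adjusted p = 0.0146). Pygl was at -0.88 (adjusted p = 0.0204), Pfkfb3 at -1.49 (adjusted p = 0.0271) and Spr at -0.74 (adjusted p = 0.0412). When pool 3 was left out instead, these 6 did not pass, with limma adjusted p from 0.0678 (Spr) to 0.169 (Loxl2).

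Size gave nearly the same genes as p. A difference of at least 2-fold was reached by 13 lower genes (0.0908%) with all room-air pools and by 13 (0.0908%) without pool 3, with 11 in both, and by 0 higher genes (0.0%) either way. Ak4 and the histone gene H2ac21 reached it only with pool 3, and P4ha2 and Mif only without it. H2ac21 was named after its values were seen. It stood at 6.7 and 6.7 in hyperoxia pools, against 7.3, 7.3 and 8.5 in room-air pools. Hk2, the hexokinase that HIF induces, was within the 11. It stood at 6.5 and 6.6, against 8.1, 8.1 and 7.3, with a difference of -1.28 (SE 0.349, limma adjusted p = 0.746). Without pool 3 the difference was -1.55 (adjusted p = 0.458). Its room-air pool 3 lay 0.8 below the others, and with the term for the arrays numbered 3 Hk2 fell by 1.57 (adjusted p = 0.0204). In the F344 hyperoxia pools, which also enter the spread, Hk2 stood at 7.1, 8.2 and 6.7. Without F344 hyperoxia pool 2 the limma adjusted p of Hk2 was 0.168. Of 21 alternative settings, Hk2 passed in 2.

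**Figure D2:**
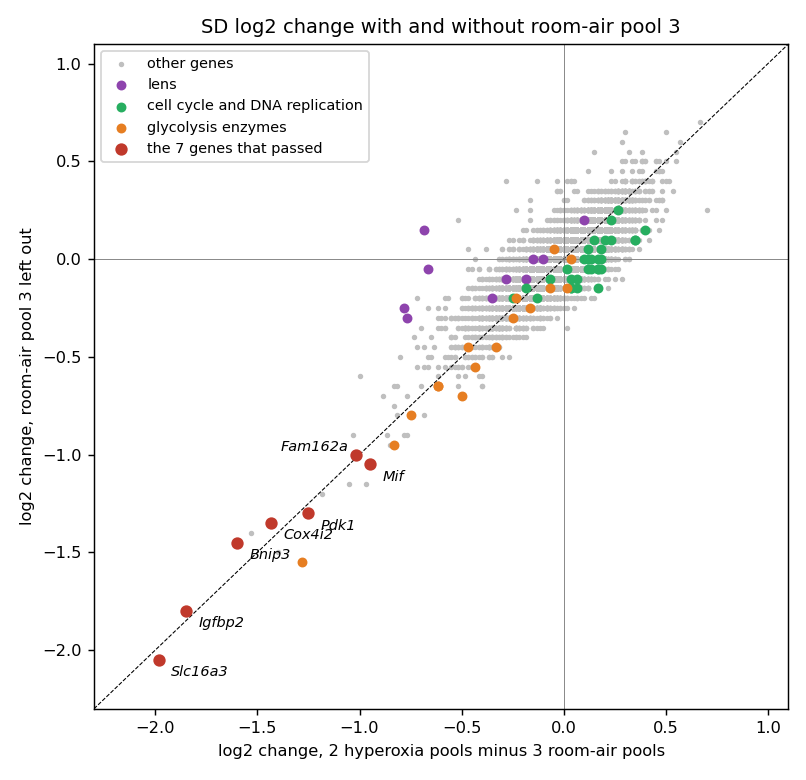
Log2 change of every counted gene in SD, hyperoxia minus room air, with all 3 room-air pools (horizontal axis) and with room-air pool 3 left out (vertical axis), with a dashed line of equality. The 7 genes that passed (red) lie near the line at the lower left, and most glycolysis enzymes (orange) lie below it. Of 32 cell cycle genes (green), 28 lie above 0 with pool 3, and 10 above and 16 below without it. The 4 lens genes furthest left (purple) lie between -0.67 and -0.78 with pool 3 and between -0.30 and 0.15 without it.

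Beyond single genes, 8 lists covering oxygen sensing and the use of glucose held 97 measured genes between them. Of these 75 lay below 0 and 20 above (77.3% below, against 46.0% of all genes), with a median of -0.23 against 0.0 over all genes. Of the 97, 6 fell and 0 rose (0.0489% and 0.0% over all genes). On the low side 41 did not overlap (42.3%, against 7.34% of all genes), and on the high side 3 (against 6.67%). Without pool 3, 71 lay below 0 (73.2%, against 41.8% of all genes), the median was -0.20, 5 fell (0.0419% over all genes), and 53 did not overlap on the low side and 5 on the high side (11.5% and 11.2% over all genes). With the term for the arrays numbered 3, 12 fell (0.119% over all genes). The lists were written with earlier results of these data known and so describe where the genes lie.

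Oxygen sensors and HIF subunits had a median of -0.08, with 6 of 10 below 0 and 0 passing. Hif1a, the main oxygen-regulated subunit, stood at 11.8 and 11.8 in hyperoxia pools, against 11.7, 11.6 and 11.5 in room-air pools. Its messenger thus lay slightly on the high side (difference 0.20, adjusted p = 0.815), and the oxygen control of its protein is not measured by an array. Epas1, the HIF subunit of endothelial cells, stood at 6.9 and 7.0, against 7.0, 7.4 and 7.7. Its partner Arnt stood at 0.08, Vhl, the ubiquitin ligase subunit that recognises hydroxylated HIF, at -0.13, and the asparagine hydroxylase Hif1an at 0.13. Egln1, the main HIF prolyl hydroxylase, lay low in both of its probe sets without overlap, but they differed in size. The counted one stood at 7.9 and 8.2 in hyperoxia pools, against 8.4, 8.6 and 8.4 in room-air pools (difference -0.42, adjusted p = 0.815). The other, at 7.7 and 7.6, against 8.6, 8.4 and 8.3, fell by 0.78 (adjusted p = 0.0495).

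Of 8 glucose and lactate transporters 6 lay below 0 (median -0.14), and Slc16a3 fell. Slc2a1, the glucose transporter of the blood-retina barrier, stood at 10.4 and 10.4 in hyperoxia pools, against 10.9, 11.0 and 10.8 in room-air pools (difference -0.50, adjusted p = 0.647). The neuronal transporter Slc2a3 stood at 7.3 and 7.5, against 8.0, 8.0 and 7.4, so its groups overlapped through pool 3. Bsg, the chaperone of lactate carriers, lay at 9.2 and 9.3, against 9.2, 9.7 and 9.3.

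Of 16 glycolysis enzymes 14 lay below 0, with a median of -0.38, and of -0.45 without pool 3. Both hyperoxia pools lay below every room-air pool for 11 of them (7.34% of all genes), and for 12 without pool 3 (11.5%). None passed, and with the term for the arrays numbered 3 Hk2 and Pfkl did. By size the order was Hk2, Pfkl, Tpi1, Gpi, Aldoa and Pgk1, and Gpi, which rearranges glucose phosphate, stood at 10.8 and 10.9 in hyperoxia pools, against 11.4, 11.6 and 11.4 in room-air pools. Pgk1, phosphoglycerate kinase, stood at 10.1 and 10.1, against 10.7, 10.9 and 10.2. Lactate dehydrogenase Ldha stood at -0.25 and pyruvate kinase Pkm at -0.33. Some steps differed little: Gapdh stood at 12.9 and 12.9, against 13, 13.1 and 12.8, and Eno1 overlapped between groups. Glycolysis regulators had a median of -0.05, with 7 of 11 below 0 and Pdk1 alone passing. Glycogen and nucleotide buffers had a median of -0.33 (8 of 11 below 0, 0 passing), and of -0.50 without pool 3, with the glycogen synthase gene Gys1 at -0.52 and the branching enzyme gene Gbe1 at -0.47.

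All 9 mitochondrial hypoxia targets lay below 0 (7 without pool 3), with a median of -0.40, and Bnip3, Cox4i2 and Fam162a fell. Higd1a, a small protein of the respiratory chain, stood at 7.8 and 7.9 in hyperoxia pools, against 8.4, 8.5 and 8.1 in room-air pools. Respiratory chain subunits, whose genes are not classical HIF targets, had a median of -0.17 with pool 3 and -0.05 without it. Among other HIF targets 17 of 21 lay below 0 (median -0.40, and -0.30 without pool 3), and Mif fell. The clock and stress factor Bhlhe40 stood at 5.7 and 5.3, against 6.1, 6.2 and 6.3. Heme oxygenase Hmox1 stood at 4.7 and 4.8, against 5.2, 5.3 and 5.1. Carbonic anhydrase Car9, a strongly hypoxia-induced gene in tumours, stood at 5.5 and 5.5, against 5.2, 5.6 and 5.2, and Ndrg1 at 10.9 and 10.9, against 10.6, 11.0 and 10.8. In these last 2 genes the groups overlapped. Collagen hydroxylases and lysyl oxidases had a median of -0.16, with 9 of 12 below 0 and 0 passing. The collagen lysyl hydroxylase gene Plod2 stood at 9.4 and 9.5, against 10, 9.9 and 9.8.

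Within gene families members differed in size of change. Families were taken around genes already known to lie low, and differences between members were not tested. Egln3 stood at -1.53, the counted probe set of Egln1 at -0.42, with its other one at -0.78, and Egln2 at -0.03. Pdk1 fell by 1.25, while Pdk2, Pdk3 and Pdk4 stood between -0.12 and -0.03. Pfkfb3 stood at -1.40, and the other Pfkfb genes between -0.05 and 0.12. Slc16a3 fell by 1.98, and the other lactate carriers stood between -0.13 and 0.10. Cox4i2 fell by 1.43, and its ubiquitous counterpart Cox4i1 stood at -0.40. Bnip3 fell by 1.60, and its relative Bnip3l stood at -0.28. Pfkl and Pfkp stood at -0.83 and -0.43, and the muscle form Pfkm at 0.03. In the Igfbp family Igfbp2 fell by 1.85, Igfbp7 stood at -0.63 and the other 5 between -0.18 and 0.03.

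**Figure D3:**
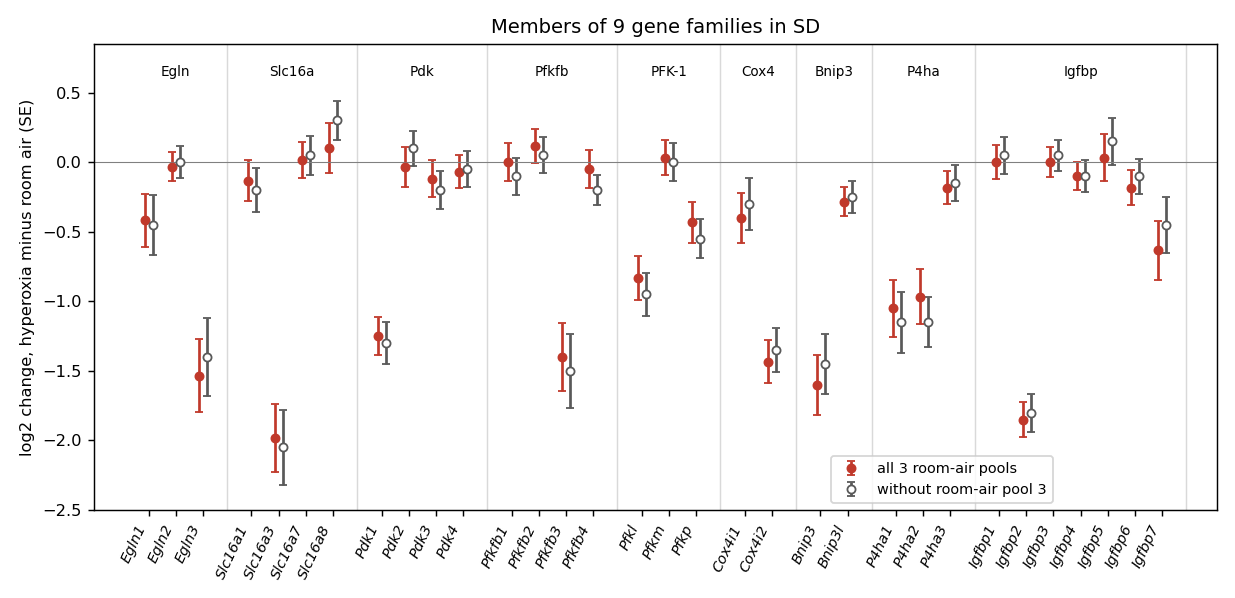
Log2 change in SD (hyperoxia minus room air, vertical axis, with SE from limma) of 32 members of 9 gene families along the horizontal axis, red with all 3 room-air pools and open grey without room-air pool 3. In each family 1 or 2 counted members lie well below the rest, from Pfkl at -0.83 to Slc16a3 at -1.98, and leaving out pool 3 moves those values little.

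The insulin-like growth factor axis around Igfbp2 lay near 0. Its 16 measured members had a median of -0.07, and of 0.00 without pool 3, with Igfbp2 alone passing. Igf1 stood at 7.4 and 7.2 in hyperoxia pools, against 7.2, 7.4 and 7.8 in room-air pools. Igf2 stood at 6.1 and 6.0, against 6.2, 6.1 and 6.6. The receptor gene Igf1r stood at 10.3 and 10.2, against 10.3, 10.2 and 9.8. The groups overlapped for Igf1, Igf2 and Igf1r, and room-air pool 3 was the highest or lowest room-air pool in each.

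Growth factor feedback genes of the ERK pathway, to which Etv5 belongs, had a median of -0.11 (12 of 16 below 0, 0 passing). Without pool 3 the median was -0.08, with 9 below 0. Etv1 stood at 7.0 and 7.1 in hyperoxia pools, against 7.4, 7.7 and 7.7 in room-air pools. Etv4 stood at 5.1 and 5.0, against 5.3, 5.3 and 5.4. Spry4, an inhibitor that the pathway induces, stood at 5.5 and 5.6, against 5.8, 5.9 and 6.0. Dusp6, the phosphatase of ERK, stood at 6.5 and 6.9, against 7.0, 7.4 and 7.0. These 4 and Etv5 were among the 6 of 16 members whose groups did not overlap on the low side (37.5%, against 7.34% of all genes). With the term for the arrays numbered 3, Etv5 fell by 0.83 (adjusted p = 0.0355). Without pool 3 its difference was -0.75 and did not pass (limma adjusted p = 0.169).

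Vessel growth factors and receptors had a median of -0.12, with 15 of 21 below 0 and 0 passing. After Vegfa, the peptide gene Adm was lowest, at 4.6 and 4.7 in hyperoxia pools, against 5.2, 5.0 and 5.4 in room-air pools (difference -0.55, adjusted p = 0.446). The relatives of Vegfa did not follow it: Vegfb stood at 8.1 and 8.0, against 8.0, 8.0 and 8.4, and Vegfc at 5.7 and 5.8, against 5.8, 5.9 and 6.0. Epo, the hormone of red cell formation, stood at 4.7 and 4.7, against 4.7, 4.7 and 4.8.

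Endothelial markers lay low as a group. Of 21 measured, 19 lay below 0 (90.5%, against 46.0% of all genes), and 18 without pool 3 (85.7%, against 41.8%). The median was -0.28 with pool 3 and -0.20 without it, and 0 passed. Cd34 stood at 4.8 and 4.7 in hyperoxia pools, against 5.2, 5.6 and 5.9 in room-air pools. The tight-junction gene Cldn5 stood at 5.5 and 5.2, against 5.8, 5.9 and 6.1. For both genes the groups did not overlap and room-air pool 3 was the highest pool. Of the 21, 9 did not overlap on the low side (42.9%, against 7.34% of all genes) and 0 on the high side (6.67%). Without pool 3, 10 did not overlap on the low side (11.5% of all genes) and 0 on the high side (11.2%). In whole retina, fewer endothelial cells and less RNA per endothelial cell cannot be told apart. Mean levels of the list were 5.18 and 5.08 in hyperoxia pools, against 5.27, 5.39 and 5.56 in room-air pools. These levels are low on the array's scale, and signal over background was not analysed. Tip cell genes had a median of -0.11 (10 of 12 below 0). Pericytes and smooth muscle had a median of -0.25 with pool 3 and -0.18 without it (11 of 12 below 0), with Rgs5 at 6.6 and 6.3, against 6.6, 7.2 and 7.7.

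Some lists of tissues that a dissected retina can carry moved with room-air pool 3, as did extracellular matrix and cell cycle genes. The 10 measured lens genes had mean levels of 5.20 and 5.12 in hyperoxia pools, against 4.94, 5.51 and 6.19 in room-air pools. Cryba1, a lens crystallin, stood at 6.6 and 6.3, against 5.5, 7.1 and 8.8, so the lens median of -0.32 became -0.08 without pool 3. Extracellular matrix genes had mean levels of 6.37 and 6.12, against 6.18, 6.34 and 6.73, and a median of -0.22 that became 0.00. Pigment epithelium genes had mean levels of 5.97 and 5.62, against 5.42, 5.62 and 6.01, and their median was 0.11 with pool 3 and 0.25 without it. Cell cycle genes had a median of 0.13 with pool 3 (28 of 32 above 0) and -0.03 without it (10 above and 16 below). Their mean levels were 8.91 and 8.92, against 8.90, 8.96 and 8.52. None of these lists had a gene that passed, and their part in the differences above was not tested. The 8 oxygen and glucose lists together had mean levels of 8.00 and 8.01, against 8.33, 8.43 and 8.30 in room-air pools. Within them pool 3 shifted both ways: its median difference from room-air pools 1 and 2 was -0.20 over the glycolysis enzymes, 0.20 over the mitochondrial hypoxia targets and -0.15 over all 97 genes.

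**Figure D4:**
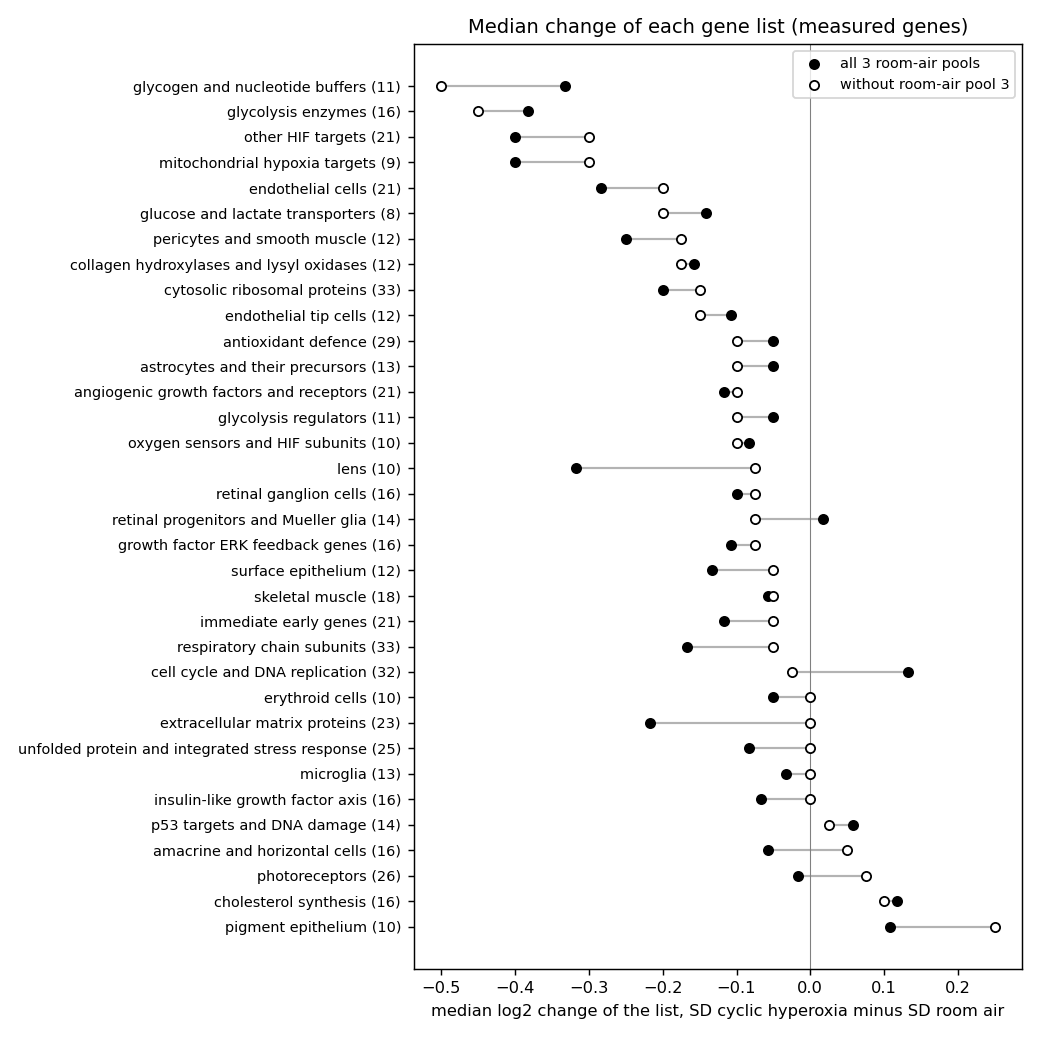
Median log2 change in SD, hyperoxia minus room air, of each of 34 gene lists (the number of measured genes in brackets), filled with all 3 room-air pools and open without pool 3. Glycolysis enzymes, other HIF targets and mitochondrial hypoxia targets lie between -0.45 and -0.30 either way, whereas the lens, extracellular matrix and cell cycle medians move towards or past 0 when pool 3 is left out.

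On the high side no named gene passed. Among genes whose hyperoxia pools lay above all 3 room-air pools, the largest difference was that of Or6c35d, an olfactory receptor gene, at 6.1 and 5.7 in hyperoxia pools, against 5.0, 5.4 and 5.3 in room-air pools (difference 0.67, limma adjusted p = 0.441). Adam4, a metalloprotease gene best known from testis, stood at 7.0 and 6.8, against 6.3, 6.3 and 6.4. Its neighbour in name Adam4l1 stood at 7.8 and 7.7, against 7.2, 7.2 and 7.2. Of the 10 highest such genes 4 were olfactory receptors and the other 6 were Adam4, Adam4l1, Pno1, Il1rapl1, Pdp2 and Oacyl. Pdp2, the phosphatase that reverses Pdk1's mark on pyruvate dehydrogenase, stood at 7.2 and 7.4, against 7.1, 7.0 and 6.3, a difference of 0.50 that was 0.25 without pool 3. Without pool 3 the cystine carrier gene Slc7a11 came second at 0.65, although with it the groups overlapped (7.1 and 6.5, against 5.9, 6.4 and 6.6). A probe set with no gene symbol rose by 0.68 (limma adjusted p = 0.0495), at 6.6 and 6.5, against 5.8, 5.9 and 5.9, and 2 without a symbol fell by 0.92 and 0.80.

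The same exposure in F344 gave smaller values for the 7 genes, with no difference between strains that passed. The 7 were picked by their SD values, so smaller values in F344 are no evidence of a weaker response there. Igfbp2 stood at 7.1, 7.4 and 7.5 in F344 hyperoxia pools, against 8.2 and 8.2 in F344 room-air pools, a difference of -0.87 where SD had -1.85. Slc16a3 stood at 7.2, 8.2 and 7.4, against 8.6 and 8.5. Bnip3 stood at 9.8, 10.2 and 10.6, against 10.4 and 10.3, so in F344 its groups overlapped, through hyperoxia pool 3 only. The strain differences given next include both arrays numbered 3. The SD effect minus the F344 effect was -0.98 for Igfbp2 (SE 0.18), -1.45 for Bnip3 (SE 0.303) and -0.98 for Vegfa (SE 0.255), each with a limma adjusted p of 0.651. Over all genes 0 differed between strains by limma after adjustment (0.0%), and 1000 at an unadjusted p under 0.05 (6.98%). Without both arrays numbered 3 these counts were 0 and 809. For Loxl2 the effects were alike in size, -0.85 in SD and -0.83 in F344.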

How the data were processed

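Retinal RNA pools were hybridised to Affymetrix whole-transcript rat arrays. The deposited log2 expression values per probe set are the authors' own, given to 1 decimal between 3.1 and 14.0. Per the submitters' processing notes, RMA and Partek 6.4 were used, in roles they do not state. Other scaling or annotation by the authors is not stated there. Array medians lay between 5.9 and 6.0. Precision is limited by the number of arrays. No 2 arrays held identical values.

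Of 27342 probe sets, 15097 had 1 gene symbol in the platform annotation, 323 several and 11922 none there. All were fitted with limma 3.58.1 in R 4.3.3, as 1 mean per group over all 10 arrays, with default eBayes, two-sided. P-values were adjusted by Benjamini-Hochberg over every probe set, with 0.05 as threshold. The fit was tested on simulated data. Each of 14325 genes was counted by its probe set of highest mean, and 498 had several. Symbols were updated from a RefSeq gene table.

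Named genes were those that passed, the 15 next by p, the 10 highest and 10 lowest differences without overlap (with and without SD room-air pool 3), the passing members and the 2 largest changes of each of 34 lists, and Vegfa, Egln3, Hk2, Epo, Hmox1, Gfap, Igf1, Igf2, Hif1a and Epas1. Further members illustrate a list, chosen with their values known. The comparison, lists and named genes were chosen with earlier results of these data known. No list was tested. The alternatives left out arrays, changed scaling, filtering, weights or variance moderation, or added terms for replicate number or the arrays numbered 3.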

Additional observations from a re-analysis of the deposited data

How the results depend on the processing

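Against 7 lower genes, the count was 1 to 9 when single arrays were left out, 1 without both arrays numbered 3, 17 with the term for them, 0 with only the 5 SD arrays, 14 with the replicate number as a block, 19 with array weights and 0 with only the 4 SD arrays numbered 1 and 2, a setting chosen after seeing the data. Repeated quantile normalization gave 7, median centring 6, brighter probe sets 7, trend and robust moderation 8 and averaging each gene's probe sets 9. The cause of these shifts was not tested, except that the SD-only fits hold fewer arrays. Higher genes numbered 0 by limma in every setting run (90 to 571 at an unadjusted p under 0.05), as did genes differing between strains (484 to 1406). Lower genes at an unadjusted p under 0.05 numbered 191 to 629, and with median centring they were fewer than the higher ones (244 against 303). Of 21 alternatives, Igfbp2 passed in 19, Cox4i2 in 15, Fam162a and Pdk1 in 14, Slc16a3 in 12, Mif in 8 and Bnip3 in 10. The pairing check found arrays of a shared number at correlations from -0.0733 (F344 room air 2 with SD room air 2) to 0.643 (F344 hyperoxia 3 with SD room air 3), with 0.314 and 0.397 for the other same-numbered pairs of those groups. Differently numbered arrays 1 and 2 of F344 hyperoxia and SD room air stood at 0.233 and 0.142. The same-numbered SD arrays compared here stood at -0.056 and -0.0225, so no shared deviation by number was seen. With 2 hyperoxia pools the deviations from their mean mirror each other, so this check could not decide on a pairing. Of 953 values of 46 named genes, 856 kept direction and side of the threshold, and these reversed: Rgr to -0.10 without hyperoxia pool 1 or room-air pool 2 of SD (range -0.10 to 0.55 over arrays left out), Epo to 0.008 with median centring, Gfap to 0.10 without SD hyperoxia pool 2 (range -0.20 to 0.10), and Igf1 to 0.033 with the term or the block. Scaling moved the median of all genes by at most 0.042 and turned the list medians of microglia (0.008) and photoreceptors (0.025). Values were rounded to 1 decimal at every level, and signal over background, which matters for dim genes, was not analysed here.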

Other observations

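No member of the other gene groups passed in the SD retina, and their medians lay between -0.20 and 0.12. Cholesterol synthesis genes lay slightly high (13 of 16 above 0, median 0.12, and 0.10 without room-air pool 3), led by Lss, lanosterol synthase, at 9.1 and 8.8 in hyperoxia pools, against 8.6, 8.9 and 8.3 in room-air pools. Targets of p53 had a median of 0.06, with the nuclease gene Aen at 6.4 and 6.5, against 6.0, 6.3 and 5.9. Genes of the unfolded protein and integrated stress response had a median of -0.08 (18 of 25 below 0), and of 0.0 without pool 3 (12 below 0). They pointed both ways, with asparagine synthetase Asns at 6.9 and 6.9, against 6.4, 6.6 and 6.4. The stress factor Atf3 stood at 5.0 and 5.0, against 5.4, 5.3 and 5.4. Antioxidant genes had a median of -0.05. The metallothionein gene Mt1 stood at 7.7 and 7.7, against 8.3, 8.4 and 8.9, and fell by 0.66 with the term for the arrays numbered 3 (limma adjusted p = 0.0271). Without pool 3 its difference was -0.65 and did not pass (limma adjusted p = 0.694). Immediate early genes had a median of -0.12 with pool 3 and -0.05 without it. Ribosomal protein genes had medians of -0.20 with pool 3 and -0.15 without it, 27 of 33 below 0 either way.

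Among retinal cells, ganglion cell genes had a median of -0.10, with the synuclein gene Sncg at 8.7 and 8.6 in hyperoxia pools, against 9.1, 9.3 and 9.3 in room-air pools. Photoreceptor genes had a median of -0.02 with pool 3 (0.025 with median centring) and 0.08 without it, and amacrine and horizontal cell genes of -0.06 and 0.05. Progenitor and Mueller glia genes had medians of 0.02 and -0.08, and astrocyte genes of -0.05 and -0.10. Gfap, the astrocyte filament gene, stood at -0.05 (limma adjusted p = 0.954). Microglia genes had a median of -0.03 (0.008 with median centring), with 7 of 13 below 0 and 6 above. Without pool 3, 6 lay below 0 and 5 above. The complement gene C1qc, 1 of the 2 largest changes of this list, stood at 5.9 and 5.9, against 6.3, 6.2 and 6.6. Erythroid genes had a median of -0.05 with pool 3 and 0.0 without it, and skeletal muscle genes of -0.06 and -0.05. Surface epithelium genes had medians of -0.13 with pool 3 and -0.05 without it, with Krt19 at 8.8 and 8.8, against 8.9, 9.3 and 9.3.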
